A study of Mus musculus with 64 samples.

Results

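The genes described here were the semaphorins of classes 3 to 7, the plexins and the neuropilins, a family of guidance ligands and their receptors, measured by bulk RNA sequencing in the hypothalamus and the prefrontal cortex (PFC) of mice. Members were chosen by gene symbol among protein-coding genes, and 31 genes of 55401 in the count table met the rule. They comprised 20 semaphorins, 9 plexins and 2 neuropilins. All 31 members passed the filter on low counts and were among the 18971 genes tested.

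The study asked how a single dose of psilocybin affected gene expression in both regions, soon after the injection and weeks later. Male, chow-fed, group-housed C57BL/6J mice aged 10 weeks were injected intraperitoneally once, with psilocybin at 3 mg/kg or with isotonic saline as vehicle. Tissue was harvested 3 h or 4 weeks after the injection, in the morning, and each of 32 mice gave a whole hypothalamus and a PFC. The 8 groups formed by region, treatment and time had 8 libraries each, so all comparisons were between wild-type animals that differed in injection, harvest or region.

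Semaphorins are secreted or membrane-bound proteins that steer axons, shape dendrites and regulate synapse number, and they also act on blood vessels and immune cells. Plexins are their signalling receptors and carry a GTPase-activating domain inside the cell, while neuropilins are co-receptors that let secreted class 3 semaphorins act through A-type plexins. In the adult brain the family is known for its part in synaptic plasticity and in the maintenance of cortical circuits.

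Of 64 libraries, 62 held at least 1000000 counted reads and were used, with totals from 8061033 to 70361839. One library each of the hypothalamus saline 3 h and PFC psilocybin 4-week groups fell short, at 211111 and 200066 reads, leaving n = 7 there. Markers matched the labelled tissues: hypothalamic markers (Agrp, Pomc, Avp, Oxt and others) summed to between 331 and 2696 CPM (counts scaled to a library of 1000000) in hypothalamus and between 0.938 and 14.0 in PFC, while excitatory cortical neuron markers summed to at least 1278 in PFC and at most 117 in hypothalamus. A pair of libraries stood apart for these genes. Replicate 5 of the hypothalamus psilocybin 4-week group lay below every other library of its group for 21 of 31 members, with hypothalamic markers at 2696 CPM against 450.0 to 782 in the other 7 libraries and GABAergic neuron markers at 553 against 803 to 1255. Replicate 7 of the PFC psilocybin 3 h group lay above all others of its group for 14 members and below them for 7, with GABAergic markers at 520.5 CPM against 623 to 706. Treatment and time comparisons and tests of the difference between responses that use these libraries are also described without them. The comparison of regions is also described without the hypothalamus library, but not without the PFC library. The study's methods left out 1 further library for wound healing and immune genes without naming it in the sources used here. The sum of 8 such genes was highest in replicate 6 of the hypothalamus saline 4-week group, at 167 CPM against 9.37 to 24.99 in the rest of that group, and leaving that library out changed no call of a member in the treatment and time comparisons that used it. Each library of a group came from a different mouse, so p-values of the treatment and time comparisons measure the spread between mice.

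The promoters of 4 genes are shown because these genes had the 3 largest differences toward PFC and the largest toward hypothalamus. Each sequence runs from 250 bases before to 50 bases after the start given by RefSeq (GRCm38.p6), 5′ to 3′ on the gene's strand, and capitals mark GGGCGG or its reverse complement CCGCCC, the core of a GC box. Plxnd1 lies at chr6:115994956-115995255 (minus strand), Sema7a at chr9:57939862-57940161 (plus), Sema3a at chr5:13396534-13396833 (plus) and Sema4g at chr19:44989094-44989393 (plus). The Sema3a start is inside the gene as the count table spans it, downstream of the gene's first base at 13125414. The Sema4g start is also inside the gene as the table spans it, from 44989101.

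Plxnd1: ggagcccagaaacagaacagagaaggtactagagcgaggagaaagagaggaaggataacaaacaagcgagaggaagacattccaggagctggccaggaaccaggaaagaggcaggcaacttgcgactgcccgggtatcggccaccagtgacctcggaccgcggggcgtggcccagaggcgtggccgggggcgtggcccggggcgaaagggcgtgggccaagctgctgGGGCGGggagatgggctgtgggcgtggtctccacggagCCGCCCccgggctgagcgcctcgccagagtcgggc
Sema7a: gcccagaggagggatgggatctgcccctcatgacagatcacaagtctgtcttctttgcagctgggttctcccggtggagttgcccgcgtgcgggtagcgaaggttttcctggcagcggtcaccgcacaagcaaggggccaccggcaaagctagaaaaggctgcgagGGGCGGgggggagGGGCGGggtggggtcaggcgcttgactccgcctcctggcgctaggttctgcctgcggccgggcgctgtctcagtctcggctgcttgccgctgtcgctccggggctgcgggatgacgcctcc
Sema3a: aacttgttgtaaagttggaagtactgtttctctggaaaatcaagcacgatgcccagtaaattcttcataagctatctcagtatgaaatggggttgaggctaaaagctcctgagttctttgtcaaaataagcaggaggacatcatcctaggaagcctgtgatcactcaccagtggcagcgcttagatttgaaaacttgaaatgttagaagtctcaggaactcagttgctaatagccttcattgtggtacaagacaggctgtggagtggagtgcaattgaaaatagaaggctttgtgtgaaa
Sema4g: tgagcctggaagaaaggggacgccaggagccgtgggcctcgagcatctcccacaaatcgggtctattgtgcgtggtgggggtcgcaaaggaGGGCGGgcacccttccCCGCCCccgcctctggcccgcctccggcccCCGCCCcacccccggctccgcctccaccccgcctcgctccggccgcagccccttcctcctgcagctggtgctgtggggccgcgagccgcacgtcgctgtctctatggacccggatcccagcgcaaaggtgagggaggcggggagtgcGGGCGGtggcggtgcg

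The 3 promoters of Plxnd1, Sema7a and Sema4g were rich in G and C (67.0%, 67.3% and 73.3%) with 23, 23 and 30 CpG pairs and 2, 2 and 4 matches to the GC box. The Sema3a window had 41.3% G and C, 2 CpG pairs and no match. RefSeq entries existed for 26 members, with 37 promoters, and 27 of these (73.0%) held GGGCGG on either strand, against 57.0% of the promoters of all genes tested and 35.7% of all promoters of the same length. Counted by gene, 21 of 26 members (80.8%) had a match, against 63.4% of the 13106 genes tested that had an entry. The E-box CACGTG occurred for 3 members (Sema3e, Sema4b and Sema6d), or 11.5% against 10.8%. Neither TGACGTCA, the full cAMP response element, nor TATAAA was found in any member's window, while 3.21% and 9.59% of tested genes had them. A match is a stretch of letters and not a measured binding site.

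Levels were compared between genes in RPKM, the CPM divided by the gene's exonic length in kilobases as the count table gives it. Sema7a, a GPI-anchored semaphorin that binds plexin C1 and integrin beta-1, had the highest level of the family in PFC, at 60.2 ± 9.34 RPKM (SD, n = 31), and the second highest in hypothalamus, at 17.4 ± 4.15. Sema6b, a transmembrane ligand of plexin A receptors, had 23.2 ± 3.38 RPKM in PFC and led the family in hypothalamus at 21.8 ± 2.99. The lowest levels belonged to secreted class 3 ligands. In PFC these were Sema3b at 1.13 ± 0.553 RPKM and Sema3f at 1.15 ± 0.247, whose gap was within the spread between libraries. In hypothalamus Sema3a was lowest at 0.878 ± 0.185 RPKM.

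Ordered by level, most neighbours could not be separated: 23 of 30 neighbouring pairs in PFC and 24 of 30 in hypothalamus differed by less than the larger SD of the pair. Among receptors, Plxnb1, the receptor of Sema4d, was highest in both regions, at 14.2 ± 2.39 RPKM in PFC and 16.4 ± 1.62 in hypothalamus. In PFC it was followed by Plxnd1 (13.6 ± 1.86 RPKM) and Plxna1 (13.2 ± 3.02), with gaps inside their spread. In hypothalamus Plxnc1 (15.0 ± 1.83 RPKM) and Plxnb2 (15.0 ± 1.41) came next, again inside the spread. Neuropilins were modest, with Nrp2 at 3.86 ± 0.864 RPKM in PFC and 7.41 ± 0.924 in hypothalamus, and Nrp1 at 2.20 ± 0.368 and 3.13 ± 0.418.

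Summed over class means, semaphorins came to 156 RPKM in PFC and 130.4 in hypothalamus, of which Sema7a alone made 60.2 and 17.4. The 9 plexins summed to nearly the same level, 86.0 RPKM in PFC and 87.3 in hypothalamus, but with a different make-up. B-type plexins summed to 26.5 RPKM in PFC and 36.7 in hypothalamus, and Plxnd1 to 13.6 and 2.49.

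**Figure D1:**
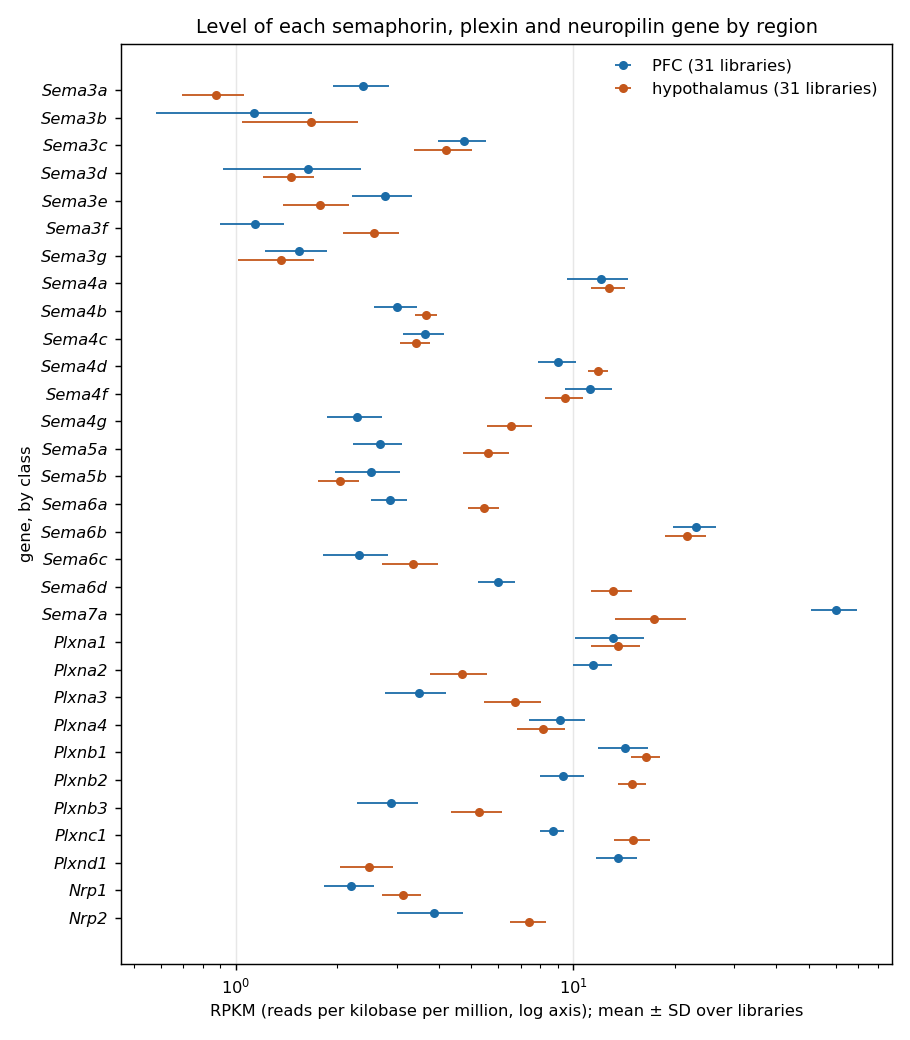
Level of each of the 31 genes in RPKM (log axis) as mean ± SD over 31 PFC libraries (blue) and 31 hypothalamus libraries (orange). Sema7a stands highest in PFC at 60.2 RPKM, and Plxnd1 is at 13.6 in PFC and 2.49 in hypothalamus.

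The regions differed in most of the family. With edgeR's quasi-likelihood test over all 62 libraries and Benjamini-Hochberg adjustment over all genes tested, 26 of 31 members differed between PFC and hypothalamus, 10 higher and 16 lower in PFC. Of all genes tested, 76.2% differed, so the count itself is near the background. By direction, 39.6% of all genes were higher and 36.5% lower in PFC. This fit treated the PFC and hypothalamus of a mouse as independent. With mouse as a replicate block, 26 members differed, 10 higher and 16 lower, beside 75.2% of all genes. Without replicate 5 of the hypothalamus psilocybin 4-week group, 27 members differed, 11 higher and 16 lower. The median size of the difference was 0.58 on the log2 scale for members and 0.38 for all genes. Hypothalamus samples were extracted in pools A and B and PFC samples in pools C and D, so region and extraction cannot be told apart.

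Among receptors, 3 were higher and 7 lower in PFC. Both neuropilins, all 3 B-type plexins and Plxnc1 were lower in PFC. Plxnd1, Plxna2 and Plxna4 were higher in PFC, Plxna3 was lower, and Plxna1 did not pass the test (log2 ratio −0.05, adjusted p = 0.456). Among ligands, 4 of 7 class 3 genes were higher in PFC and 2 lower, 3 of 6 class 4 genes were lower and 1 higher, 3 of 4 class 6 genes were lower and none higher, class 5 was split, and Sema7a was higher.

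For 7 members no PFC library overlapped any hypothalamus library, which held for 11.3% of all genes tested. Of these, 4 were higher in PFC. Plxnd1, the receptor of Sema3e best known from blood vessels and from thalamic and striatal wiring, ranged from 75.2 to 125 CPM (median 97.9) in PFC and from 11.7 to 27.6 (median 18.2) in hypothalamus. It was 5.49 times as high in PFC (log2 ratio 2.46, SE 0.0564, adjusted p = 4.73e-44), the largest difference of any member.

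Sema7a, the leading ligand by level in PFC, ranged from 154 to 255 CPM there (median 190.3) and from 37.7 to 95.1 in hypothalamus (median 55.3). Its ratio was 3.46 (log2 1.79, SE 0.0646, adjusted p = 8.06e-34). Sema3a, the secreted ligand that collapses growth cones and is held in perineuronal nets, ranged from 21.3 to 44.1 CPM in PFC (median 34.2) and from 4.86 to 16.8 in hypothalamus (median 12.1). Sema3a was lowest of the family per length in hypothalamus, and its PFC level was 2.72 times as high (log2 1.44, SE 0.0750, adjusted p = 6.62e-26). Plxna2, a receptor for class 6 ligands as well as for class 3 through neuropilins, ranged from 161 to 252 CPM in PFC (median 193) and from 19.8 to 102 in hypothalamus (median 81.4), a ratio of 2.46 (log2 1.30, SE 0.0667, adjusted p = 4.31e-26).

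The other 3 without overlap were lower in PFC. Sema4g, a transmembrane ligand of plexin B2, ranged from 14.4 to 30.3 CPM in PFC (median 18.3) and from 43.6 to 73.2 in hypothalamus (median 54.4). It was 2.86 times as high in hypothalamus (log2 ratio −1.52, SE 0.0549, adjusted p = 9.3e-34), the largest difference in that direction. Plxnb2 itself ranged from 55.0 to 89.5 CPM in PFC and from 102 to 144 in hypothalamus (log2 ratio −0.69, SE 0.0405, adjusted p = 2.91e-23), so that this ligand and its receptor were both higher in hypothalamus. Sema6a, a class 6 ligand of plexins A2 and A4, ranged from 20.5 to 32.2 CPM in PFC and from 32.4 to 57.7 in hypothalamus (log2 ratio −0.93, SE 0.0395, adjusted p = 2.94e-30).

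Sema3f, Sema6d and Sema5a followed Sema4g in size, with overlap. Sema3f, the secreted ligand that acts through Nrp2, had a median of 5.76 CPM in PFC (3.69 to 9.79) and 13.2 in hypothalamus (8.59 to 19.1), with a log2 ratio of −1.18 (SE 0.0650, adjusted p = 1.39e-24). Sema6d, a class 6 ligand of plexin A1, had a median of 62.5 CPM in PFC (48.3 to 83.7) and 140.3 in hypothalamus (44.5 to 160.2), with a log2 ratio of −1.13 (SE 0.0561, adjusted p = 6.41e-27). Sema5a, a ligand with thrombospondin repeats, had a median of 49.4 CPM in PFC (35.8 to 71.8) and 106 in hypothalamus (32.5 to 123), with a log2 ratio of −1.06 (SE 0.0658, adjusted p = 3.29e-22). For Sema6d and Sema5a, the lowest hypothalamus value came from replicate 5 of the psilocybin 4-week group, the library described above as standing apart.

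Ligand and receptor did not always differ in the same direction. Nrp2 was higher in hypothalamus with Sema3f (log2 ratio −0.96, SE 0.0553, adjusted p = 9.43e-24), and so was Plxnb3, a receptor of Sema5a (−0.87, SE 0.0649, adjusted p = 9.35e-19). Sema3e and its receptor Plxnd1 were both higher in PFC (Sema3e log2 ratio 0.65, SE 0.0775, adjusted p = 3.93e-11). Sema7a was higher in PFC while its receptor Plxnc1 was lower there (−0.79, SE 0.0437, adjusted p = 1.76e-24). Sema3a was higher in PFC and Nrp1, its co-receptor, lower (−0.52, SE 0.0507, adjusted p = 3.24e-14).

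Within mice, the direction held in all or nearly all animals for some members and not for others. Of 30 mice with both regions, Plxnd1, Sema7a, Sema3a and Plxna2 were higher in PFC in 30. Nrp1, Nrp2, Plxnb2, Sema3f, Sema4d, Sema4g and Sema6a were lower in PFC in 30. Plxnb3, Plxnc1, Sema5a, Sema6d and Plxna3 were lower in 29. Among the other members that passed, Plxna4 was higher in PFC in 19 mice, Sema3g in 21, Sema3c in 22, Sema5b in 24, Sema4f in 27 and Sema3e in 28, while Sema3b was lower in 24, Plxnb1 in 25, Sema4b in 26 and Sema6c in 28. Of the 5 that did not pass, Sema4a was higher in PFC in 9 mice, Plxna1 in 11, Sema3d in 14, Sema4c in 16 and Sema6b in 19.

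**Figure D2:**
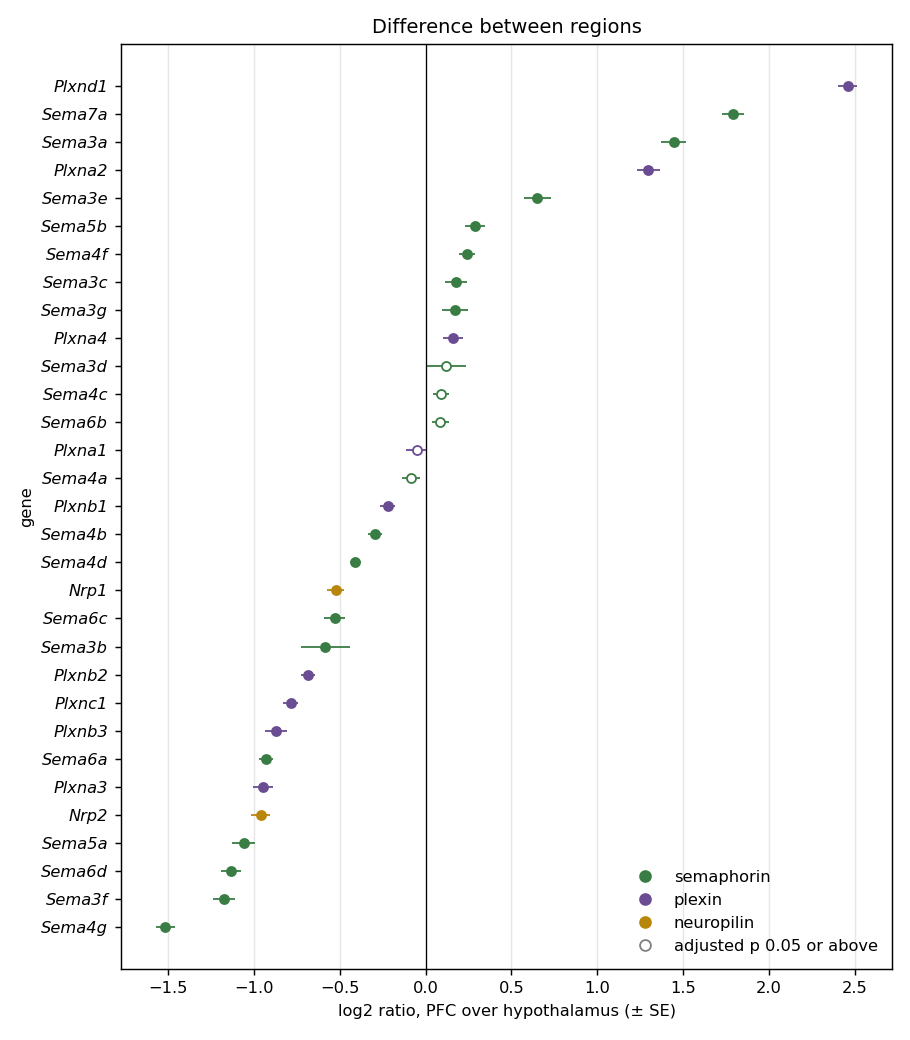
Log2 ratio of PFC over hypothalamus (± SE) for each gene, ordered by value, with semaphorins in green, plexins in purple and neuropilins in gold. Open points mark the 5 genes with an adjusted p of 0.05 or above, and Plxnd1 (2.46) and Sema4g (−1.52) are at the ends.

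Cell type markers also differed between the regions. In these bulk samples, fewer cells of a type and less RNA per cell cannot be told apart. All 8 endothelial, all 6 mural and all 7 meningeal markers were higher in PFC, with endothelial sums of 147 to 282 CPM against 84.1 to 219 in hypothalamus. All 6 oligodendrocyte markers were lower in PFC (2303 to 6741 CPM against 6065 to 10940). All 6 microglial markers were higher in PFC (384 to 697 CPM against 244 to 373), and every marker of these lists passed the filter on low counts. All 5 thalamic markers were lower in PFC (86.3 to 152 CPM against 425 to 914, median log2 ratio −3.07), as were 2 of 3 GABAergic neuron markers (520.5 to 796 CPM against 553 to 1255, median log2 ratio −1.25). The part of these cell types in the differences of the family was not tested.

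Psilocybin had no member past the threshold 3 h after injection in PFC. With the same test, 0 of 31 members differed from saline, and 0.0105% of all genes tested (2 genes) did. At an unadjusted p under 0.05 there were 4 members, against 7.23% of all genes. The estimates leaned down, with 22 of 31 members lower after psilocybin and a median log2 ratio of −0.09, against 52% of all genes lower and a median of −0.01. With an offset that corrects each library for GC content and length of genes, 22 were again lower but the median was −0.033. Without the offset, 8 of the 9 plexins had estimates below 0. The lean was not particular to PFC at 3 h. In hypothalamus at 3 h 25 of 31 members were lower (median −0.06), with 8 of 9 plexins, against 50.4% of all genes. In PFC at 4 weeks 19 of 31 members were lower (median −0.04), against 52.6% of all genes.

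The smallest p-values belonged to Sema4a, Nrp1 and Plxna1. Sema4a, a class 4 ligand best known from immune cells and the retina, ranged from 50.3 to 83.4 CPM (median 70.4) after saline and from 38.8 to 75.0 (median 55.0) after psilocybin. These groups overlapped, and the log2 ratio was −0.28 (SE 0.101, adjusted p = 0.557 in edgeR's quasi-likelihood test). Nrp1, co-receptor of Sema3a and also of VEGF, ranged from 18.9 to 29.2 CPM (median 25.02) after saline and from 15.9 to 25.8 (median 21.6) after psilocybin, with a log2 ratio of −0.26 (SE 0.1001, adjusted p = 0.602). Plxna1, the partner of Nrp1 in class 3 reception, ranged from 99.0 to 166 CPM (median 132) after saline and from 77.8 to 152 (median 109) after psilocybin, with a log2 ratio of −0.28 (SE 0.124, adjusted p = 0.67). Within both extraction pools the 3 estimates were negative, at −0.26 and −0.30 for Sema4a, −0.17 and −0.36 for Nrp1, and −0.15 and −0.38 for Plxna1 (4 against 4 libraries in each pool). Sema4d followed (log2 ratio −0.12, SE 0.0594, adjusted p = 0.687).

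The call depended on the procedure. With the procedure of the study's methods, limma-voom with sample quality weights, 4 members passed in PFC at 3 h among 1232 genes of the whole table (6.49%), of which 975 were higher and 257 lower after psilocybin. It was run here on the 62 libraries, 1 more than the study kept. The members were Sema4a (log2 ratio −0.36, adjusted p = 0.017), Plxna1 (−0.34, adjusted p = 0.0349), Nrp1 (−0.30, adjusted p = 0.0441) and Sema3a, the only one higher after psilocybin (0.35, adjusted p = 0.0489). That procedure gave replicate 7 of the psilocybin group a weight of 0.119, where 1 would be neutral. In the saline group, replicates 3, 5 and 4 had weights of 0.275, 0.286 and 0.323, and fits without them together were not run. In edgeR without replicate 7 of the psilocybin group no member passed, and 8 instead of 4 had an unadjusted p under 0.05. The share of all genes in that fit was not counted, so nothing particular to the family is read from the 8. In the same fit 23 of 31 estimates were below 0, the median was −0.14, and Sema4a was at −0.38 (SE 0.0963, adjusted p = 0.153). No marker list had a call in this comparison, but all 6 oligodendrocyte markers (median log2 ratio 0.21), all 7 meningeal markers (0.16), all 6 striatal markers (0.36) and all 5 thalamic markers (0.14) had estimates above 0. Of 8 endothelial markers 7 were below 0 (median −0.07), and of 5 excitatory neuron markers 4 were (−0.12). The part of these cells in the estimates of the family was not tested.

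In the other 3 treatment comparisons no member passed either, nor did any gene of the table (0%). At an unadjusted p under 0.05, PFC at 4 weeks had 1 member against 2.4% of all genes, hypothalamus at 3 h had none against 1.78%, and hypothalamus at 4 weeks had none against 9.61%. The last share, 1823 genes, rested on 1 library, since without replicate 5 of the psilocybin group there were 361 of 18890 genes and still no member. DESeq2 and limma-voom called no member in these 3 comparisons. DESeq2 called 19 genes of the table in PFC at 4 weeks, 0 in hypothalamus at 3 h and 13 in hypothalamus at 4 weeks.

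In PFC at 4 weeks the smallest p belonged to Sema3f, which ranged from 4.88 to 9.79 CPM (median 6.60) after saline and from 3.69 to 7.73 (median 5.79) after psilocybin (log2 ratio −0.28, SE 0.134, adjusted p = 1.0). Sema6a ranged from 21.7 to 30.6 CPM (median 24.0) after saline and from 23.0 to 32.2 (median 27.2) after psilocybin (0.16, SE 0.0804, adjusted p = 1.0). Sema5b, the other class 5 ligand, ranged from 14.9 to 30.0 CPM (median 19.4) and from 15.4 to 23.8 (median 16.8), with a log2 ratio of −0.15 (SE 0.119, adjusted p = 1.0). All of these pairs of groups overlapped.

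In hypothalamus at 3 h the smallest p belonged to Sema3a, which ranged from 11.5 to 16.8 CPM (median 13.2) after saline and from 8.24 to 16.7 (median 11.2) after psilocybin (log2 ratio −0.28, SE 0.153, adjusted p = 1.0). Sema3f ranged from 11.2 to 19.1 CPM (median 13.3) and from 8.59 to 15.7 (median 12.7), with a log2 ratio of −0.21 (SE 0.128, adjusted p = 1.0). Sema4f, a class 4 ligand enriched in brain, ranged from 48.5 to 59.5 CPM (median 53.4) and from 39.9 to 59.8 (median 51.0), with a log2 ratio of −0.13 (SE 0.0938, adjusted p = 1.0). None of the differences exceeded the spread between mice.

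In hypothalamus at 4 weeks Sema6c, a class 6 transmembrane ligand, ranged from 17.7 to 21.9 CPM (median 19.3) after saline and from 17.4 to 33.9 (median 21.6) after psilocybin (log2 ratio 0.23, SE 0.120, adjusted p = 0.537). Sema3e, the ligand of Plxnd1, ranged from 11.97 to 28.0 CPM (median 17.0) and from 10.6 to 22.01 (median 14.1), with a log2 ratio of −0.27 (SE 0.154, adjusted p = 0.599). Sema5a ranged from 91.0 to 122 CPM (median 110.1) and from 32.5 to 116 (median 103), with a log2 ratio of −0.18 (SE 0.127, adjusted p = 0.693). Here the direction of the family rested on 1 library: 21 of 31 members had estimates below 0 with a median of −0.05, and without replicate 5 of the psilocybin group 11 of 31 did, with a median of 0.02. Sema5a was then at −0.05 (SE 0.0955, adjusted p = 1.0).

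The precision of these comparisons can be read from the 95% intervals. The intervals lay within ±0.5 on the log2 scale for 28 of 31 members in PFC at 3 h, 29 in PFC at 4 weeks, 28 in hypothalamus at 3 h and 29 in hypothalamus at 4 weeks, and within ±1.0 for all 31 in each. Sema3b had the widest intervals. Its count fell to 6 reads in 1 library, the lowest of any member, although its median of 124.5 reads per library was above that of Sema3g (108).

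**Figure D3:**
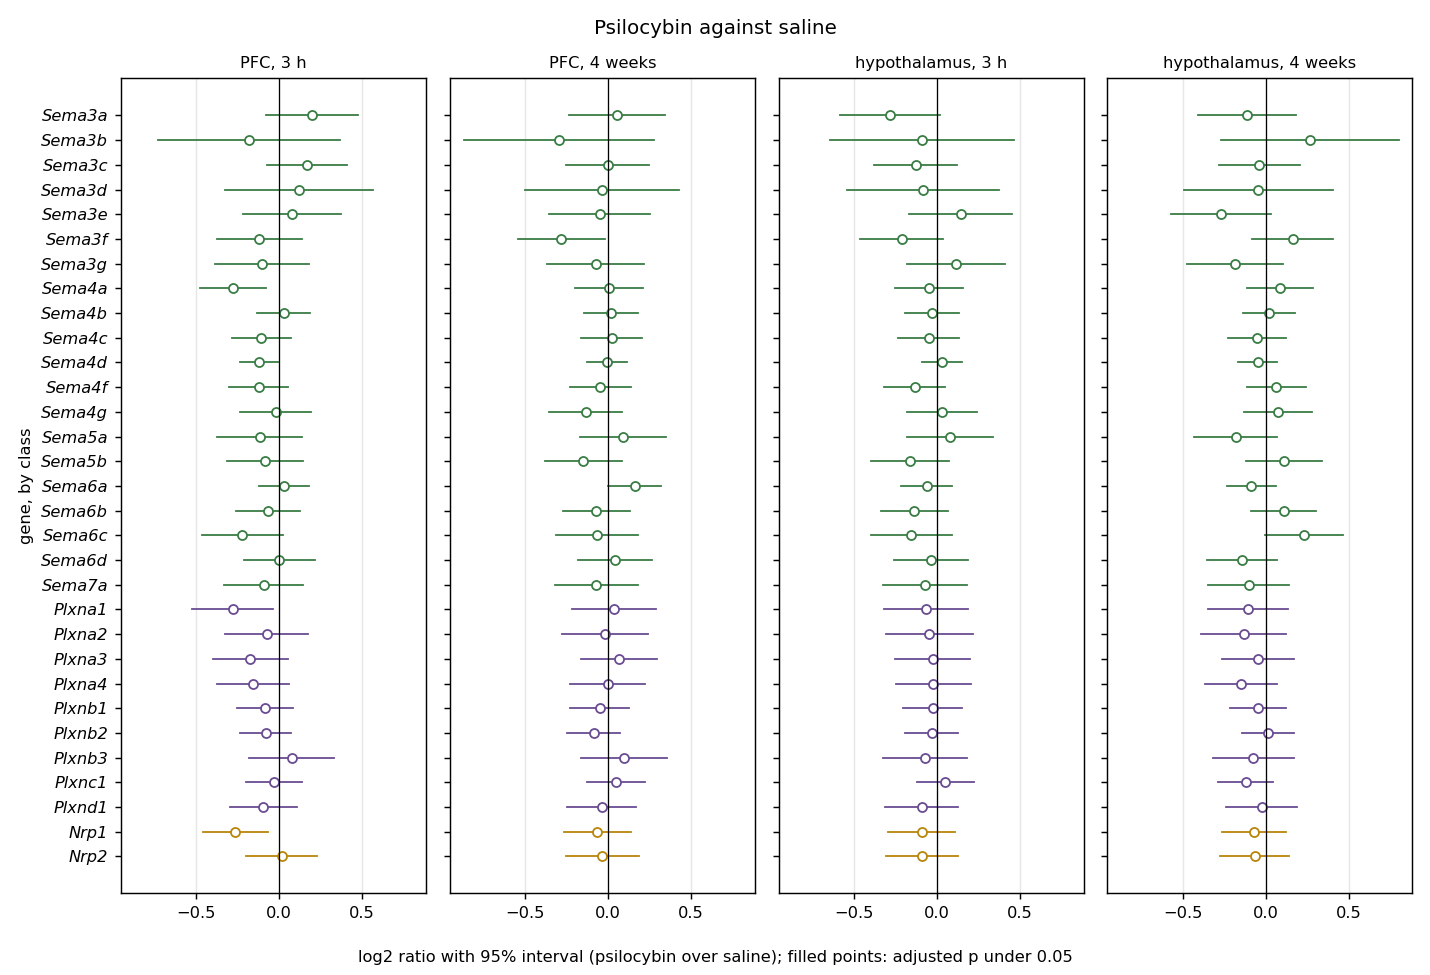
Log2 ratio of psilocybin over saline with 95% interval for each gene in the 4 combinations of region and time (semaphorins green, plexins purple, neuropilins gold). Every point is open, since no gene had an adjusted p under 0.05, and Sema3b has the widest interval in each panel.

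Tests of the difference between responses gave no call among members or in the whole table (0% in each of 4 such tests, edgeR). At 3 h the PFC response minus the hypothalamus response was largest in p for Sema3a (0.48 on the log2 scale, SE 0.209, adjusted p = 1.0), the only member at an unadjusted p under 0.05, against 2.78% of all genes. At 4 weeks there were 2 such members against 6.69%, Sema3f (−0.44, SE 0.182, adjusted p = 0.737) and Sema6a (0.25, SE 0.111, adjusted p = 0.737). For the 3 h response minus the 4-week response, PFC had none against 3.08%, with Sema4a first (−0.28, SE 0.145, adjusted p = 1.0). Hypothalamus had 2 against 5.27%, Sema6c (−0.39, SE 0.173, adjusted p = 0.904) and Sema3f (−0.37, SE 0.178, adjusted p = 0.904). Without replicate 5 of the hypothalamus psilocybin 4-week group, 1 member was at an unadjusted p under 0.05 at 4 weeks (Sema3f, −0.42, SE 0.183) beside 538 genes of the table instead of 1269, and Sema6a was at 0.19 (SE 0.1001). In hypothalamus there was then none, beside 431 genes instead of 999, with Sema6c at −0.34 (SE 0.172) and Sema3f at −0.34 (SE 0.178). Without replicate 7 of the PFC psilocybin 3 h group, 3 members were at an unadjusted p under 0.05 for the regional difference at 3 h and 4 for the 3 h minus the 4-week response in PFC, with Sema3a at 0.56 (SE 0.203, adjusted p = 0.915) and Sema4a at −0.39 (SE 0.135, adjusted p = 1.0). No member passed in these fits, and the share of all genes without replicate 7 was not counted.

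Harvest at 3 h was compared with harvest at 4 weeks within each region and treatment, and in edgeR 1 member passed in PFC after each treatment. Mice harvested at 4 weeks were also older, so time since injection, age and harvest session cannot be told apart. In PFC after saline, 1 of 31 members passed, against 4.72% of all genes tested. It was Sema4d, the transmembrane ligand of Plxnb1 that promotes the assembly of inhibitory synapses. Sema4d ranged from 60.3 to 91.5 CPM (median 78.0) at 3 h and from 54.9 to 75.5 (median 64.8) at 4 weeks. The groups overlapped, and its level was 1.19 times as high at 3 h (log2 ratio 0.25, SE 0.0594, adjusted p = 0.0074 in edgeR's quasi-likelihood test).

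The Sema4d difference was positive within both extraction pools, at 0.28 in pool C and 0.20 in pool D, and it passed when any 1 of the 16 libraries was left out. It did not pass without the filter on low counts (adjusted p = 0.115), with all 64 libraries (adjusted p = 0.437) or in a fit of only these groups (adjusted p = 0.108). The log2 ratios in these fits were 0.237, 0.244 and 0.233, close to that of the main fit. In the other 3 time comparisons Sema4d was also higher at 3 h without passing, at 0.13 in PFC after psilocybin (adjusted p = 0.203), 0.09 in hypothalamus after saline (adjusted p = 0.843) and 0.17 in hypothalamus after psilocybin (adjusted p = 0.135). The sign in PFC after psilocybin turned, to −0.065, when all 64 libraries were used, of which the 4-week psilocybin group then held the library of 200066 reads. Sema4d had the smallest spread within groups of all members.

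Nrp1 was the second by p in PFC after saline, with 18.9 to 29.2 CPM (median 25.02) at 3 h and 15.8 to 23.7 (median 20.6) at 4 weeks (log2 ratio 0.31, SE 0.0998, adjusted p = 0.0563). It passed in DESeq2 (adjusted p = 0.0407), in limma-voom (adjusted p = 0.0302), with the offset for GC content and length (adjusted p = 0.0172; with cage as a block, 0.0356), without replicate 5 of the hypothalamus psilocybin 4-week group (adjusted p = 0.0159), and in 5 of 16 fits that left out 1 of the libraries compared. The 3 h saline group is the same one against which Nrp1 was lower at 3 h after psilocybin, so both estimates share these 8 libraries. Plxnb3 came next, with 10.5 to 21.3 CPM (median 16.3) at 3 h and 16.2 to 24.1 (median 19.8) at 4 weeks (log2 ratio −0.33, SE 0.129, adjusted p = 0.137). It passed in edgeR with the offset for GC content and length (log2 ratio −0.41, adjusted p = 0.0243), and with cage added as a block (adjusted p = 0.0232). In all, 10 members had an unadjusted p under 0.05, against 18% of all genes.

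In PFC after psilocybin, 1 of 31 members passed, against 5.96% of all genes. It was Plxna3, an A-type plexin that serves Sema3f together with Nrp2. Plxna3 ranged from 18.1 to 28.8 CPM (median 22.7) at 3 h and from 24.7 to 38.3 (median 35.0) at 4 weeks. The ranges overlapped in part, and the log2 ratio was −0.49 (SE 0.117, adjusted p = 0.00619). It passed in all 12 alternative settings and with any 1 of 15 libraries left out, with estimates of −0.75 in pool C and −0.27 in pool D. In PFC after saline Plxna3 was at −0.25 (adjusted p = 0.222), and it passed there only when GC content and gene length were corrected by an offset (−0.33, adjusted p = 0.0189), with or without cage as a block. In hypothalamus its log2 ratio after psilocybin was 0.02 (adjusted p = 0.94), and after saline it was near 0 (adjusted p = 1.0). The time ratio after psilocybin minus that after saline in PFC was −0.24 for Plxna3 (SE 0.163) and −0.11 for Sema4d (SE 0.0855), with an adjusted p of 1.0 for both, so neither change was shown to depend on treatment.

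Plxnb3 and Sema4a came next in PFC after psilocybin. Plxnb3 ranged from 12.6 to 23.3 CPM (median 16.6) at 3 h and from 18.7 to 25.9 (median 21.5) at 4 weeks (log2 ratio −0.35, SE 0.133, adjusted p = 0.105). Sema4a ranged from 38.8 to 75.0 CPM (median 55.0) at 3 h and from 47.7 to 94.1 (median 66.7) at 4 weeks (−0.27, SE 0.104, adjusted p = 0.108). Both passed in limma-voom (adjusted p = 0.0112 for Plxnb3 and 0.00916 for Sema4a). Both also passed in edgeR with the offset for GC content and length (adjusted p = 0.0246 and 0.00414), and with cage added as a block (0.0307 and 0.00435). Without replicate 7 of the 3 h group, 3 members passed: Plxna3 (−0.56, adjusted p = 0.00163), Sema4a (−0.37, adjusted p = 0.0133) and Sema6c (−0.39, adjusted p = 0.0478). The share of all genes in that fit was not counted. With all 62 libraries, 7 members had an unadjusted p under 0.05, against 20.4% of all genes.

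A few markers of other cell types and of the neighbouring tissue passed the test for harvest time. In PFC, 1 of 6 microglial markers and 1 of 4 oligodendrocyte precursor markers were higher at 3 h after both treatments, while none of 6 oligodendrocyte markers passed. In hypothalamus 1 of 4 precursor markers was also higher at 3 h after both treatments. In PFC precursor sums after saline ran from 169.8 to 233 CPM at 3 h and from 145 to 190.1 at 4 weeks. Precursor sums after psilocybin ran from 166 to 235 CPM at 3 h and from 142 to 201 at 4 weeks. One of 5 astrocyte markers and 1 of 6 wound-healing and immune markers were higher at 3 h in PFC after psilocybin. In hypothalamus after saline 1 of 8 endothelial markers was higher at 3 h, and 7 of 8 had estimates above 0. In PFC after saline 1 of 8 hypothalamic markers was lower at 3 h and all 8 had estimates below 0 (median −0.90), with sums of 1.23 to 5.53 CPM at 3 h and 2.16 to 14.0 at 4 weeks. Without any call, all 7 meningeal markers had estimates above 0 in PFC after saline (median 0.32) and after psilocybin (0.45). All 6 striatal markers had estimates below 0 in PFC after saline (median −0.85), where replicate 6 of the 4-week group summed to 1184 CPM beside a group median of 152. After psilocybin 5 of these 6 were above 0 (median 0.38). The part of these cells in the time differences was not tested.

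In hypothalamus no member passed the test for harvest time in edgeR after either treatment. After saline 0 of 31 passed, against 0.685% of all genes, and 2 had an unadjusted p under 0.05, against 8.09%. Sema7a ranged from 47.6 to 95.1 CPM (median 60.6) at 3 h and from 38.6 to 65.4 (median 52.3) at 4 weeks (log2 ratio 0.31, SE 0.129, adjusted p = 0.452). Sema3c, a secreted ligand that also acts on vessels, ranged from 26.3 to 39.1 CPM (median 34.5) and from 20.9 to 36.9 (median 28.1), with a log2 ratio of 0.28 (SE 0.128, adjusted p = 0.548). Sema4f ranged from 48.5 to 59.5 CPM (median 53.4) and from 40.6 to 62.8 (median 45.6), with a log2 ratio of 0.18 (SE 0.0937, adjusted p = 0.663).

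After psilocybin 0 of 31 passed in hypothalamus, against 1.16% of all genes, and 5 had an unadjusted p under 0.05, against 17.4%. Sema6c ranged from 13.8 to 21.2 CPM (median 18.2) at 3 h and from 17.4 to 33.9 (median 21.6) at 4 weeks (log2 ratio −0.40, SE 0.120, adjusted p = 0.0831). It passed in DESeq2 (adjusted p = 0.039) and limma-voom (adjusted p = 0.02). Sema3g ranged from 4.04 to 10.2 CPM (median 6.80) and from 3.68 to 6.39 (median 5.40), with a log2 ratio of 0.42 (SE 0.146, adjusted p = 0.132). Sema4d ranged from 89.2 to 106 CPM (median 94.3) and from 78.1 to 91.7 (median 85.2), with a log2 ratio of 0.17 (SE 0.0591, adjusted p = 0.135), and it passed in limma-voom (adjusted p = 0.0171). Sema7a passed in 1 setting, the offset for GC content and length with cage as a block (log2 ratio 0.45, adjusted p = 0.0353). Without replicate 5 of the 4-week group, none of the 31 passed, Sema6c was at −0.35 (SE 0.122, adjusted p = 0.208), and 1915 genes of the table had an unadjusted p under 0.05 instead of 3302.

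**Figure D4:**
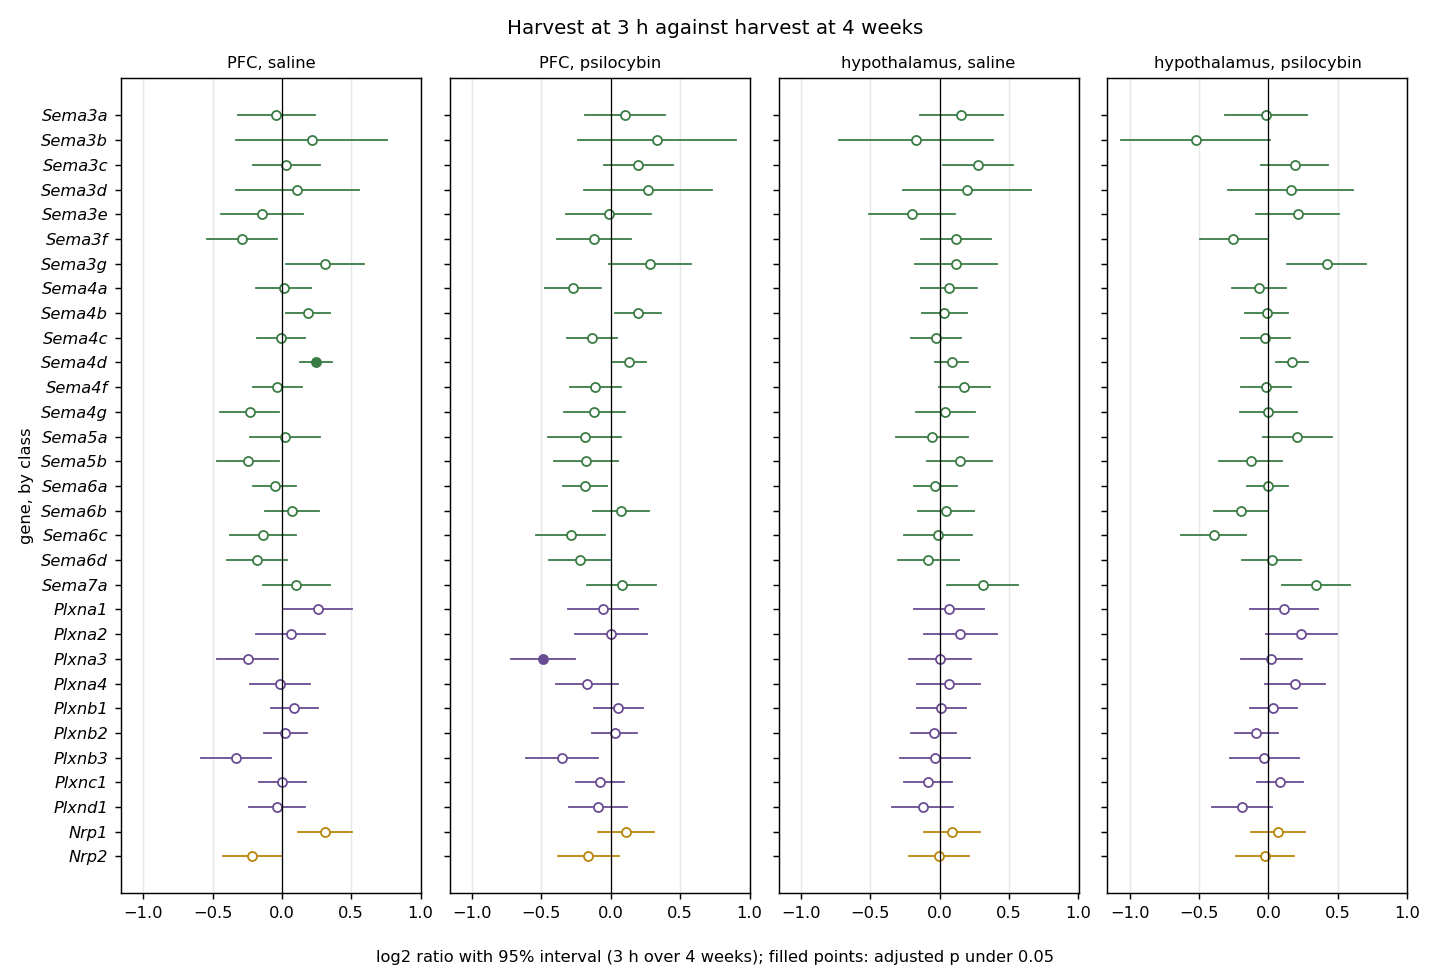
Log2 ratio of harvest at 3 h over harvest at 4 weeks with 95% interval for each gene in the 4 combinations of region and treatment (semaphorins green, plexins purple, neuropilins gold). The 2 filled points are the genes with an adjusted p under 0.05, Sema4d in PFC after saline (0.25) and Plxna3 in PFC after psilocybin (−0.49).

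**Figure D5:**
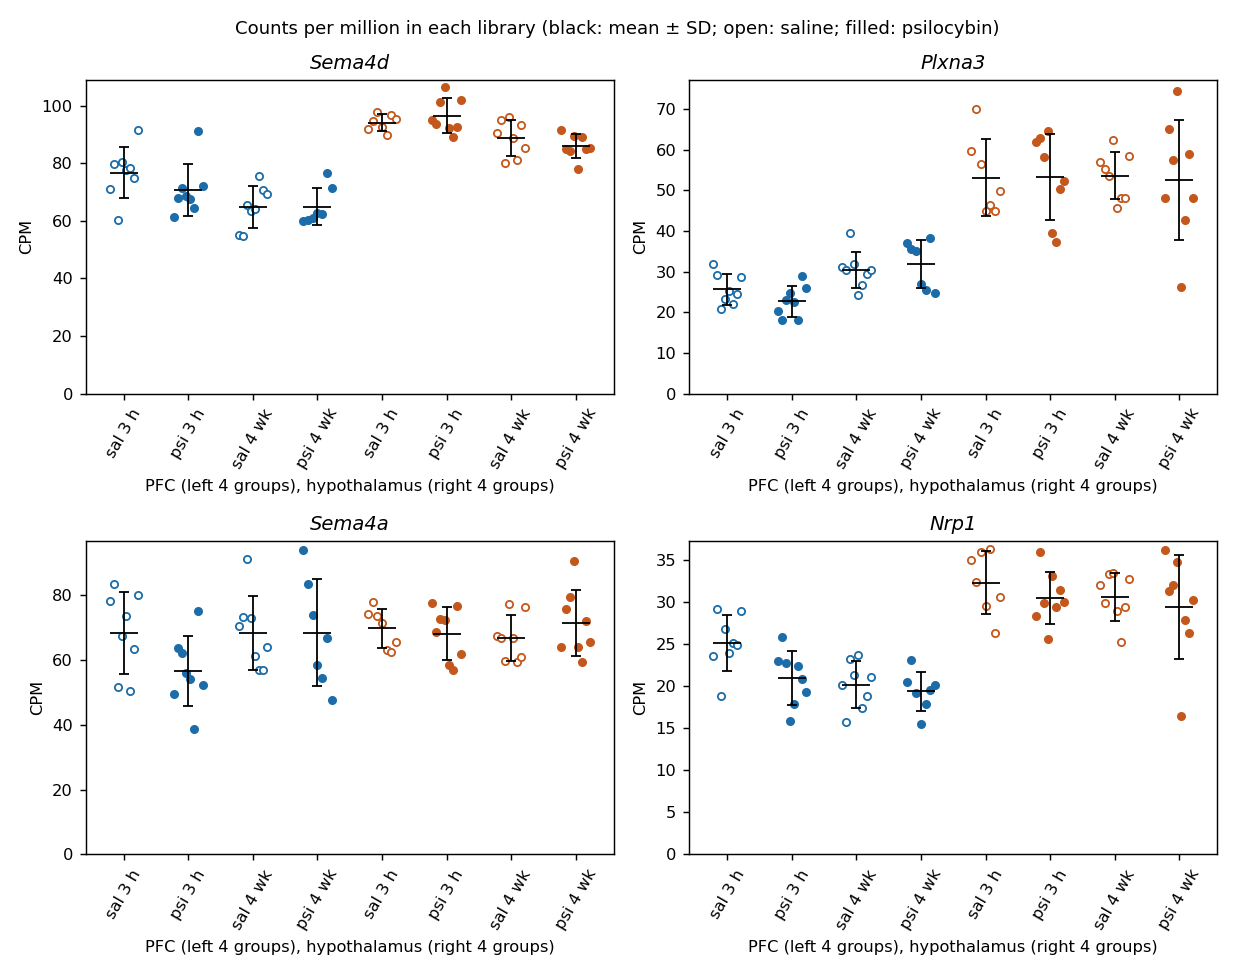
CPM in every library for Sema4d, Plxna3, Sema4a and Nrp1, with PFC in blue and hypothalamus in orange, saline open, psilocybin filled, and black bars for mean ± SD of each group. In PFC, Sema4d after saline has medians of 78.0 CPM at 3 h and 64.8 at 4 weeks, Plxna3 after psilocybin has 22.7 and 35.0, and the groups overlap in each case.

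Members varied within groups about as much as all genes tested, but genes of like level were not compared. The median of mean log2 CPM was 5.23 for members and 3.72 for all genes. This spread includes differences between extraction pools. The SD of log2 CPM within groups had a median of 0.26 over members and 0.29 over all genes tested. Sema3b (0.73) and Sema3d (0.52), both secreted class 3 ligands, varied most. Sema4d (0.13), Sema4b (0.16) and Sema6a (0.16), all membrane-bound, varied least.

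Partners of the family were examined as lists. Of 14 co-receptors and other receptors (such as L1cam, Ret and Itgb1), 13 were tested, and with 7 VEGF ligands and receptors and 41 transducers inside the cell (such as the CRMP and MICAL genes) they had no call in any of the 4 treatment comparisons. In PFC at 3 h the smallest p of each list belonged to L1cam, the adhesion molecule that joins the Sema3a receptor (log2 ratio −0.19, SE 0.1003, adjusted p = 0.706), Flt4, the receptor of VEGF-C (−0.47, SE 0.231, adjusted p = 0.687), and Dpysl3, a CRMP protein of the cytoskeleton (−0.15, SE 0.0688, adjusted p = 0.67). The median log2 ratios of the lists there were −0.08, −0.08 and −0.05, beside −0.01 for all genes.

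With harvest time, Mras was the only partner past the threshold in edgeR, and the partner lists were not recomputed under other settings. Mras, a Ras-family GTPase of the kind plexins act on, had a mean of 331 CPM at 3 h and 278 at 4 weeks in PFC after saline (log2 ratio 0.25, SE 0.0486, adjusted p = 0.000601). In PFC after psilocybin the means were 320.5 and 280.0 (0.20, SE 0.0504, adjusted p = 0.0117). Mical1, an oxidoreductase downstream of plexin A, had a larger estimate in hypothalamus after saline without passing (−0.39, SE 0.103, adjusted p = 0.0529).

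Between regions, 5 of 13 co-receptors were higher and 5 lower in PFC, 4 of 7 VEGF genes were higher and 1 lower, and 22 of 41 transducers were higher and 12 lower. Of all genes tested, 39.6% were higher and 36.5% lower, and nothing particular to the lists is read from these counts. Among co-receptors, Ret, a receptor tyrosine kinase that works with Plxnd1, had a mean of 4.54 CPM in PFC and 75.9 in hypothalamus (log2 ratio −4.06, SE 0.0982, adjusted p = 2.59e-42), opposite to Plxnd1. The adhesion molecule Nrcam had 459 and 291 CPM (0.66, SE 0.0383, adjusted p = 1.59e-23), and Cntn2, another adhesion molecule, 124 and 209 (−0.76, SE 0.0544, adjusted p = 2.16e-19). Among VEGF genes, the ligands Vegfa (0.55, SE 0.0415, adjusted p = 1.91e-18) and Vegfc (1.20, SE 0.0943, adjusted p = 8.26e-18) were higher in PFC and Pgf lower (−1.26, SE 0.108, adjusted p = 2.61e-16). Among transducers, Mical2 had 478 and 72.3 CPM (2.71, SE 0.0592, adjusted p = 3.65e-45), and Ptk2, the focal adhesion kinase, had 176 and 68.7 (1.35, SE 0.0322, adjusted p = 2.82e-43). Mras was also higher in PFC, at 303 against 125 CPM (1.27, SE 0.0252, adjusted p = 2.91e-47).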

How the data were processed

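Counts of 64 libraries (TruSeq stranded mRNA, paired-end) were used as deposited. The authors demultiplexed with bcl2fastq 2.20.0, aligned with STAR 2.7.2b to GRCm38 and counted reads per GENCODE gene with featureCounts 1.6.2, without normalization. Per the methods, a read pair counted if both its ends lay on 1 strand. Whether counting used the strand of the gene was not given in the sources used here. No member overlapped another protein-coding gene. Symbols were found for 55141 of 55401 IDs.

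Libraries with at least 1000000 counts were kept (62). Genes were filtered with filterByExpr (minimum count 10) and fitted together in edgeR 4.0.16 (R 4.3.3; TMM, robust glmQLFit, glmQLFTest) on group and extraction pool, with Benjamini-Hochberg adjustment over 18971 genes and a threshold of 0.05. Standard errors were derived from the test statistic. CPM used TMM library sizes. Alternatives used DESeq2 1.42.0 and limma 3.58.1 (voom with sample quality weights, the study's procedure), other filters, offsets and samples, and 62 leave-one-out fits; the design was tested on simulated counts. No same-group pair agreed within sampling noise (lowest chi-square per degree of freedom 3.85 over 210 pairs).

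Values were given in full for members called, else the 3 with the smallest p per comparison, the 4 highest and 4 lowest called between regions, and up to the 3 smallest p of each partner list. The members, lists and rules were chosen with earlier results of these data known. The replicate number is the cage in the labels; deviations of same-cage mice correlated by 0.0806 (PFC) and 0.0723 (hypothalamus) on average, over 0.1 in 22 and 18 of 45 pairs, and by −0.0413 and −0.0234 with extraction pool removed, over 0.1 in 4 and 10. The rule asked every pair to be over 0.1, so cage was not taken as a pairing. Such a rule cannot exclude a cage effect, and the fit with cage as a block is an alternative.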

Additional observations from a re-analysis of the deposited data

Results flagged for a closer look

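Within groups of 7 or 8 libraries, 24 of 248 tests found 1 library far from the others (Dixon's gap test at the 95% level), in 20 members, where chance gives about 1 in 20. Of these, 11 were low values in replicate 5 of the hypothalamus psilocybin 4-week group. Among receptors in that library, Nrp2 was at 51.5 CPM (others 82.5 to 102), Plxna1 at 53.7 (107 to 152), Plxna2 at 19.8 (62.1 to 92.5), Plxna4 at 42.6 (93.6 to 133), Plxnb1 at 98.3 (148 to 180.0), Plxnb3 at 18.9 (34.1 to 37.1) and Plxnc1 at 56.2 (124 to 136). Among ligands in that library, Sema3a was at 4.86 CPM (10.6 to 14.4), Sema3d at 3.61 (12 to 16.3), Sema5a at 32.5 (95.5 to 116) and Sema6d at 44.5 (137 to 160.0).

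A further 7 came from replicate 7 of the PFC psilocybin 3 h group. High values in it were those of Plxnb1 at 190.0 CPM (others 108 to 146), Sema4c at 23.1 (13.4 to 16.9), Sema4d at 91.4 (61.4 to 72.1), Sema5b at 24.3 (12.9 to 18.0) and Sema6b at 136 (73.6 to 97.8). Low values in it were those of Sema3a at 21.3 CPM (34.2 to 41.7) and Sema3c at 27.1 (36.5 to 43.5).

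The remaining 6 were single high values. Plxna2 was at 96.5 CPM in replicate 4 of the hypothalamus saline 4-week group (others 72.0 to 81.5), and Plxnb2 at 144 in replicate 1 of the hypothalamus psilocybin 4-week group (106 to 120.0). In replicate 6 of the hypothalamus saline 3 h group, Plxnd1 was at 27.6 CPM (14.5 to 19.0) and Sema6a at 57.0 (46.0 to 48.7). In the PFC saline 4-week group, Sema3b was at 10.2 CPM in replicate 5 (3.78 to 6.38) and Sema4c at 21.9 in replicate 3 (14.8 to 17.4).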

How the results depend on the processing

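Of 162 recounts of called members under other settings, 146 stayed within 1.5 times, and no direction of a called member turned. In PFC psilocybin against saline at 3 h, the study's procedure called 4 members instead of 0 (and 1232 genes of the table instead of 2). For time in PFC after saline (1 member), counts were 0 with no filter, with all 64 libraries or with only the groups compared, 2 with DESeq2 and with the study's procedure, 3 without hypothalamus psilocybin 4-week replicate 5, and 7 with the GC and length offset. In the same order, 1.01%, 2.78%, 1.87%, 5.98%, 5.98%, 8.32% and 8.13% of all genes passed. For time in PFC after psilocybin (1 member) the member counts were 7, 2 and 4 with the study's procedure, without that library and with the offset. The shares of all genes were 19.1%, 11.3% and 10.8%. For time in hypothalamus after psilocybin (0) the member counts were 1 with DESeq2 (Sema6c) and 2 with the study's procedure, beside 2.36% and 3.29% of all genes. With the offset and the cage as a replicate block, added after seeing the data, the member counts were 7, 4 and 1. The shares of all genes were then 7.99%, 9.86% and 1.84%. The cage as a replicate block alone left Sema4d (adjusted p = 0.00788) and Plxna3 (adjusted p = 0.00448) called and changed no other call. Leaving out 1 library at a time gave 1 to 3 members in PFC after saline (3 without 3 h replicate 5; 2, with Nrp1 added, without 3 h replicate 1 or 3 or 4-week replicate 3 or 5), 1 to 3 in PFC after psilocybin (3 without 3 h replicate 7; 2 without 3 h replicate 4 or 4-week replicate 8) and 0 to 1 in hypothalamus after psilocybin (Sema6c, without 4-week replicate 1). The causes were not tested, and of these fits only that without hypothalamus psilocybin 4-week replicate 5 was counted over all genes. Over the table, time calls in PFC after saline ran from 310 to 1571 genes, beside 896, and in PFC after psilocybin from 552 to 3614, beside 1131. Depth was lowest for Sema3b, Sema3f and Sema3g, whose counts fell to 6, 48 and 45 reads in 1 library each.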
